A study of Mus musculus with 6 samples.

Results

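Foxk1 regions shared with Sin3A are the genomic regions at which chromatin immunoprecipitation sequencing (ChIP-seq) listed both proteins in C2C12 cells, an established line of mouse myoblasts (strain label C3H) that can fuse into myotubes. The members were chosen by the boundaries of the 2 region lists: a Foxk1 region was taken as shared when at least 1 of its bases lay in a Sin3A region, with chr15 and chrM left out. By this rule 2622 of 7931 Foxk1 regions were shared. The study measured 6 samples, each the only one of its group: ChIP-seq of Foxk1, ChIP-seq of Sin3A, a ChIP input that was not analysed here, and 3 RNA-seq libraries. Both ChIP-seq samples came from myoblasts that were not starved, grown in DMEM with fetal bovine serum, and the Foxk1 and Sin3A antibodies differed. Of the RNA libraries, the control library came from non-starved cells with the siRNA labelled siNS, the starved library from siNS cells kept for 4 h in HBSS, a balanced salt solution, and the knockdown library from non-starved cells with siRNA against Foxk1. The stated purpose of the ChIP-seq was to map where both proteins lie on chromatin in non-starved myoblasts.

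Foxk1 is a forkhead transcription factor, which binds DNA directly through its winged-helix domain. Sin3A does not bind a DNA sequence of its own: it is a scaffold that carries the histone deacetylases Hdac1 and Hdac2, and transcription factors bring it to chromatin, where the complex removes acetyl groups from histones. Foxk factors carry a forkhead-associated domain and are known partners of Sin3 in myogenic cells. The regions listed for both proteins are where such a pairing could be seen on DNA, although overlap in separate libraries does not show that both sat on the same molecule.

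The overlap itself chose the members and is given as a description. Sharing 1 base or more held for 33.1% of Foxk1 regions (exact Clopper-Pearson 95% interval 32.0 to 34.1%). Seen from the other list, 2583 of 15185 Sin3A regions met a Foxk1 region, which is 17.0% (16.4 to 17.6%). The intervals cover counting error only, and regions of 1 library are not replicates, so nothing here measures the spread between cultures. The shared sequence came to 1.57 Mb, which was 31.9% of the 4.93 Mb covered by Foxk1 and 11.5% of the 13.7 Mb covered by Sin3A. Within the members, 88.7% of their 1.77 Mb lay under Sin3A.

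Most members were embedded in Sin3A and did not merely touch it. A Foxk1 region lay wholly inside a single Sin3A region in 1504 of the 2622 members (57.4%). The Foxk1 region ran past the Sin3A region at its higher-coordinate side in 505 members and at its lower-coordinate side in 490, nearly equal numbers. A further 104 members held a whole Sin3A region inside themselves, and 19 met 2 Sin3A regions each. No pair had the same boundaries on both sides, and 16 of 2641 overlapping pairs had both boundaries within 20 bases of each other. At least 50% of the Foxk1 region was covered in 2472 members (94.3%) and at least 90% in 1837 (70.1%), while 17 members had under 10% covered.

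The rule itself limits how far apart the centres of paired regions can lie, so their distances only describe the overlap. The distance between the Foxk1 and the Sin3A centre had a median of 181.5 bases, with quartiles at 81 and 341.5 bases. It was at most 500 bases in 87.9% of the 2641 pairs and over 1000 bases in 2.16%. The Foxk1 centre was on the lower-coordinate side in 1292 pairs and on the higher-coordinate side in 1348. The centre base of the Foxk1 region fell inside a Sin3A region in 2482 of 7931 Foxk1 regions (31.3%), all of them members. Of these 2482 centres, 1827 (73.6%) lay within the middle 50% of the Sin3A region's length.

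**Figure D1:**
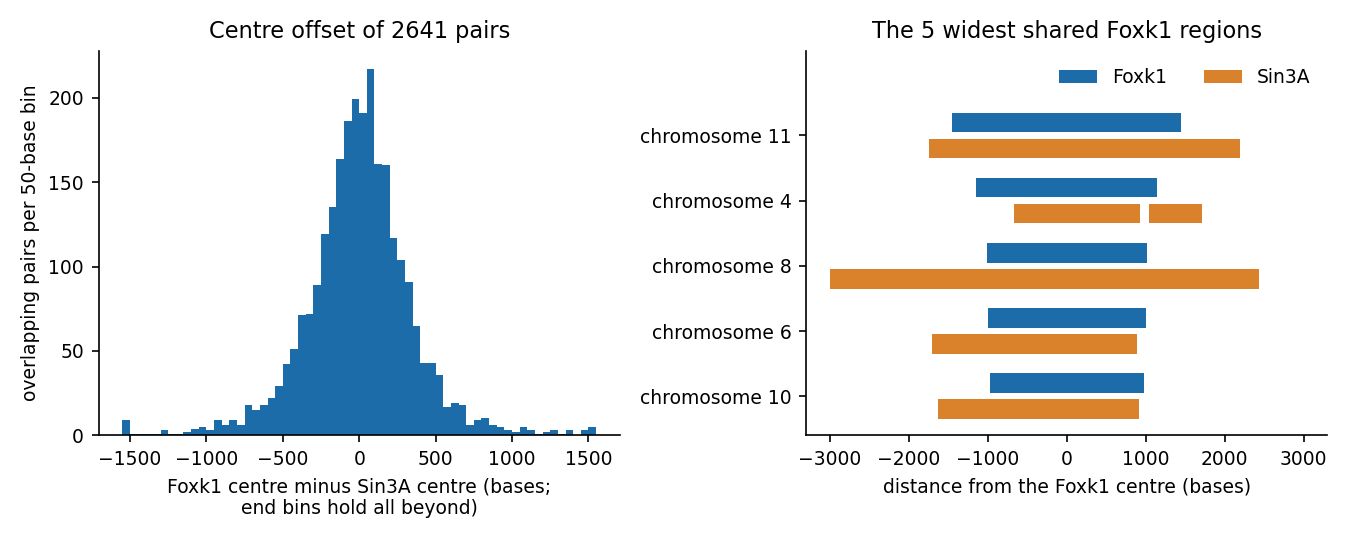
Left, the number of overlapping Foxk1 and Sin3A pairs by the distance from the Sin3A centre to the Foxk1 centre in 50-base bins, which peaks around 0 with a median size of 181.5 bases. Right, the 5 widest shared Foxk1 regions outside chr18 (blue) and the Sin3A regions they meet (orange), drawn to scale in bases from the Foxk1 centre. The Foxk1 regions on chromosomes 11 and 8 lie wholly inside Sin3A, and the one on chromosome 4 meets 2 Sin3A regions.

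The widest members show these arrangements at single places in the mm9 genome. At chr11:74643033-74645932 the widest Foxk1 region, 2900 bases, lay whole within a Sin3A region of 3946 bases, at chr11:74642735-74646680. It was also the member with the most shared bases. At chr8:87501081-87503106 a Foxk1 region of 2026 bases lay inside a Sin3A region of 5434 bases. The members at chr6:31037569-31039574 (2006 bases wide) and chr10:79627094-79629038 (1945 bases wide) were covered to 94.1% and 97.3%. The member at chr4:108504862-108507150, 2289 bases wide, met 2 Sin3A regions of 1603 and 672 bases and was covered to 74.4%. Outside chr18, the 5 widest members were thus also the 5 with the most shared bases, though in another order.

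At the other end, the narrowest member was 130 bases wide, at chr9:3031887-3032016, and its Sin3A region was 131 bases wide with a centre 6.5 bases away. The next narrowest outside chr18, chr8:20020306-20020485, measured 180 bases against a Sin3A region of 208 bases, 15 bases from centre to centre. These 2 members therefore had nearly the same extent in both lists, unlike the third, chr11:117687126-117687332, whose 207 bases lay inside a Sin3A region of 2554 bases. The ChIP input and the mm9 sequence were not read at these places, so what lies behind the match was not tested. Just inside the rule, the members at chr11:44757115-44757755 and chr13:55546264-55546719 shared 2 bases each, and those at chr1:59538686-59538946, chr6:51122690-51123110 and chr5:117565206-117565558 shared 5, 10 and 18 bases. Just outside it, the Foxk1 regions at chr2:18794543-18795133 and chr17:35975219-35975704 were 5 and 9 bases from a Sin3A region, and 3 others were 11, 11 and 12 bases away. Few regions lay near this edge: 24 of the 5309 Foxk1 regions that were not shared came within 100 bases of Sin3A and 232 (4.37%) within 1000 bases. The median gap of the regions not shared was 32991 bases.

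Shared Foxk1 regions were wider than those not shared. The members had a median width of 630 bases, with quartiles at 488 and 811.75, a lowest value of 130 and a highest of 2900. Foxk1 regions that were not shared had a median of 564 bases, with quartiles at 461 and 689. Regions not shared ran from 52 to 2148 bases, so the ranges overlapped between 130 and 2148 bases. Width can help a region to meet the rule, and its part in this difference was not tested. When members were taken by the centre base instead, the medians were 630 and 566 bases, a difference of 64 bases against 66 under the main rule.

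The share did not rise evenly with width. The Foxk1 regions were put in 10 width bins of nearly equal number. In the 6 narrowest bins, from 52 to 631 bases, 1316 of 4766 regions were shared, or 27.6%, and each single bin lay between 26.3% and 29.1%. From there the share went up bin by bin, from 31.0% at 632 to 691 bases to 35.5%, 45.5% and finally 53.1% at 908 bases and more, where 420 of 791 regions were shared (95% interval 49.6 to 56.6%). The bins held 24.6 to 29.5% of regions with their centre in Sin3A up to 691 bases, and 50.3% in the widest bin.

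The members were next divided by the width of their Sin3A partner. Sin3A regions were split at their median, into wide regions of 705 bases or more and narrow ones of 704 or fewer. Of the 2622 members, 2159 (82.3%) met a wide Sin3A region and 463 (17.7%) met narrow ones alone. The share of Foxk1 regions that met a wide Sin3A region was 20.9% in the narrowest Foxk1 bin and 49.6% in the widest. The share that met narrow Sin3A regions alone was 8.17% in the narrowest bin and 3.54% in the widest, and stayed between 3.54% and 8.17% in all 10 bins. Members with a wide partner had a median Foxk1 width of 653 bases, those with narrow partners alone 548 bases.

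**Figure D2:**
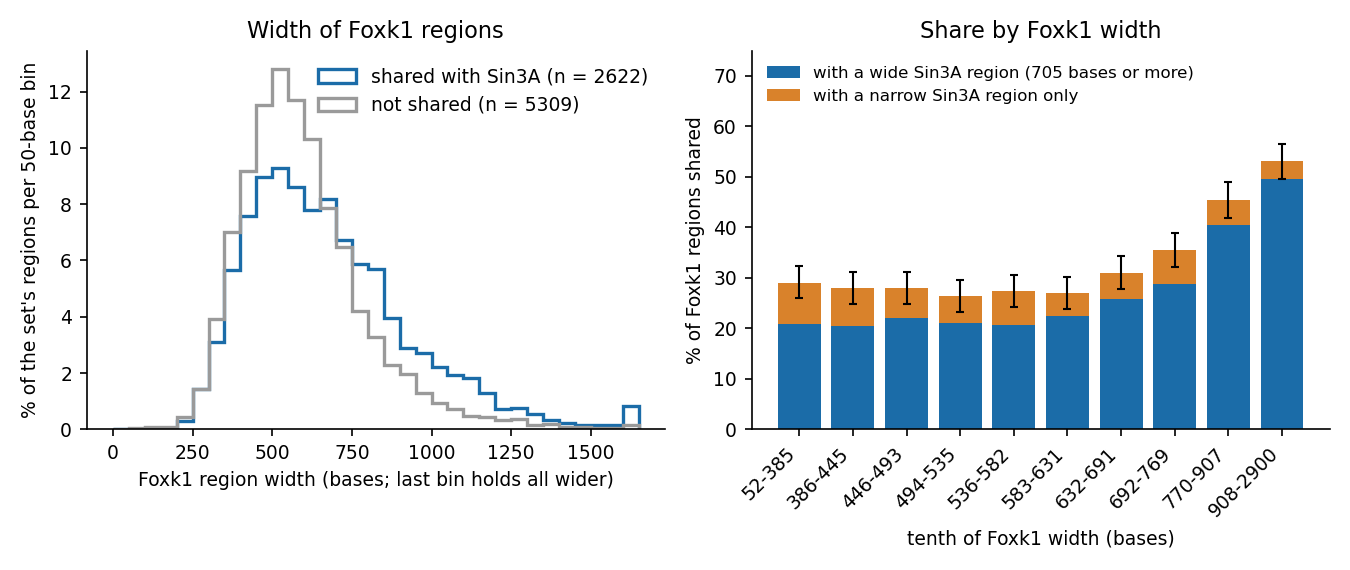
Left, the width of Foxk1 regions in 50-base bins as a percent of each set, for the 2622 shared regions (blue) and the 5309 not shared (grey); the shared set has its median at 630 bases and the other at 564. Right, the percent of Foxk1 regions shared in 10 width bins, split by wide (blue) and narrow (orange) Sin3A partners, with exact 95% intervals for the total. The total lies between 26.3% and 29.1% in the 6 narrowest bins and then rises to 53.1% in the widest.

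The same pattern held from the Sin3A side. Among narrow Sin3A regions 476 of 7593 met a Foxk1 region (6.27%), and among wide ones 2107 of 7592 (27.8%). In 10 width bins the share was 5.41% at 44 to 411 bases, 9.11% at 614 to 704, 25.9% at 840 to 1030 and 36.5% at 1643 bases and above. Sin3A regions that met Foxk1 had a median width of 1127 bases against 645 bases for those that did not. In 85.8% of the 2641 pairs the Sin3A region was the wider one, and the median ratio of Sin3A to Foxk1 width was 1.74. The widths of paired regions were only weakly related, with a Spearman rho of 0.22 over the 2641 pairs, all of which come from the same pair of libraries. Width can help a Sin3A region to meet the rule as well, and its part in the rise was not tested.

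The geometry differed with the partner. With a wide partner, 1423 of 2159 members (65.9%) were wholly covered, against 81 of 463 (17.5%) with narrow partners alone. The centres lay a median of 207.5 bases apart with a wide partner and 102 bases with a narrow one. A wide region leaves more room for both, so these values describe the shape of the overlap and not its strength, for which neither list has a score.

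Some Sin3A regions held more than 1 Foxk1 region. Of the 2583 that met Foxk1, 58 met 2 Foxk1 regions each and none met more, and these 58 had a median width of 2003.5 bases. The widest of them, chr12:74138841-74143820, was 4980 bases long. It took in the whole of the Foxk1 region at chr12:74139889-74140389 (501 bases) and 76 of the 474 bases of the one at chr12:74138443-74138916.

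The share of Foxk1 regions that were members varied between chromosomes. It was highest on chromosome 7, where 124 of 264 Foxk1 regions were shared (47.0%, exact 95% interval 40.8 to 53.2%). Chromosome 11, with 315 of 761 (41.4%), chromosome 9, with 143 of 367 (39.0%), and chromosome 5, with 180 of 467 (38.5%), followed, and on these 4 the interval lay above the share over all chromosomes. It lay below that share on chromosome 13, with 95 of 369 (25.7%), chromosome 10, with 147 of 570 (25.8%), and chromosome 8, with 152 of 585 (26.0%). The other 12 lay between 28.8% and 36.1%, with intervals that included the overall share. These intervals treat regions as independent, which the neighbour values given below do not bear out, and 19 chromosomes were compared. Chromosome 11 alone carried 12.0% of all members and 9.60% of all Foxk1 regions.

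The widths of both lists are given beside these shares, and their part in the order of the chromosomes was not tested. Chromosome 7 had a median Foxk1 width of 559 bases and chromosome 13 one of 594 bases. Wide regions made up 59.8% of the Sin3A regions of chromosome 7, 52.3% on chromosome 11 and 46.1% on chromosome 13, and over the 19 chromosomes this percentage and the share of Foxk1 regions that were members had a Spearman rho of 0.83. The points of this correlation share both libraries, and wide Sin3A regions that meet Foxk1 count in both measures, so the relation is in part built into them and is given as a description. The share that met wide partners ran from 19.8% on chromosome 13 to 36.4% on chromosome 7, and the share that met narrow partners alone from 3.32% on chromosome 16 to 10.6% on chromosome 7. The X chromosome stood apart in its Sin3A list: it held 345 Sin3A but only 95 Foxk1 regions, and 34.8% of its Sin3A regions were wide. Of its Foxk1 regions 29 were members, or 30.5%, with an interval from 21.5 to 40.8%.

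**Figure D3:**
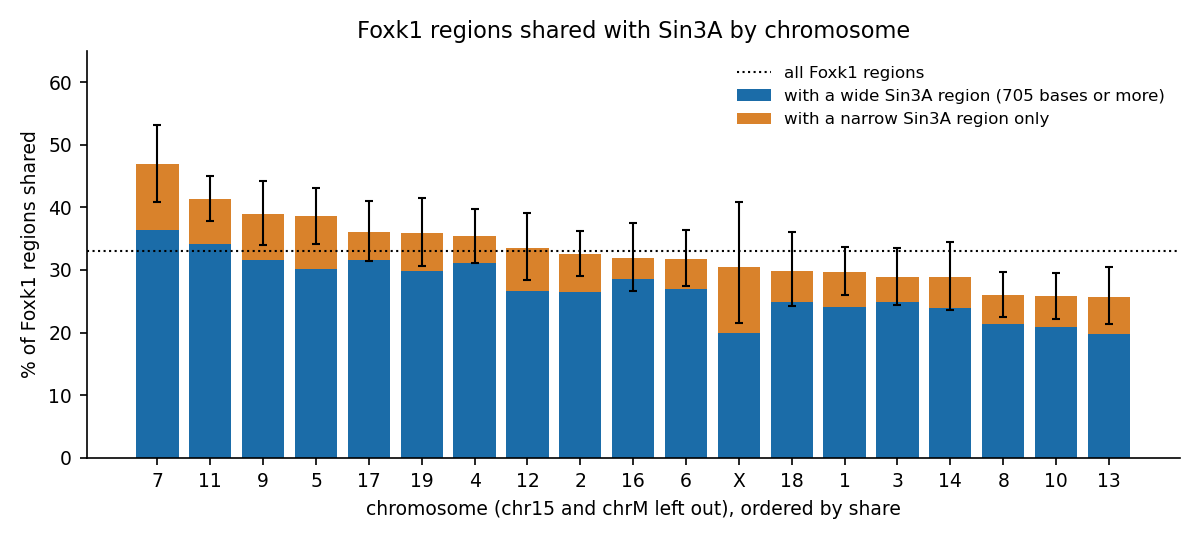
Percent of Foxk1 regions shared with Sin3A on each of 19 chromosomes, split by wide (blue) and narrow (orange) Sin3A partners, with exact 95% intervals for the total and a dotted line at the 33.1% of all Foxk1 regions. Chromosomes 7, 11, 9 and 5 have intervals above the line, and 8, 10 and 13 below it.

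Members tended to follow one another along the chromosome. Which Foxk1 regions are neighbours was not used by the rule, but whether each is shared is the rule's own outcome. Stretches with many Sin3A regions can let neighbours meet the rule together, and their part was not tested. The values are descriptions. After a shared Foxk1 region, the next Foxk1 region on the chromosome was shared in 1042 of 2611 cases (39.9%), and after one that was not shared in 1575 of 5301 (29.7%). The share over all Foxk1 regions, for comparison, is the 33.1% given above. The share after a member was the higher one on 18 of 19 chromosomes.

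This tendency depended on the distance. When the next region was 10 to 100 kb away, it was shared in 481 of 1051 cases after a member (45.8%, 95% interval 42.7 to 48.8%) and in 598 of 2018 cases after a region not shared (29.6%, 27.6 to 31.7%). This order was seen on 17 of the 18 chromosomes with at least 10 pairs of each kind. Between 100 kb and 1 Mb the values were 33.6% and 31.0%, with overlapping intervals, and the order was seen on 10 of 19 chromosomes. At 1 Mb or more they were 31.1% and 30.3%. At 1 to 10 kb they were 34.9% (61 of 175) and 26.8% (121 of 451), again with overlapping intervals. Only 5 chromosomes had at least 10 pairs of each kind there, and the order was seen on all 5. Within the 6 narrower width bins, at 10 to 100 kb, the next region was shared in 38.4% of 281 cases after a member and in 25.9% of 758 cases otherwise.

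Under 1 kb the members came mostly in pairs. There the next region was shared in 71 of 95 cases after a member (74.7%) and in 11 of 94 cases after a region not shared (11.7%). In 54 of these 71 cases both Foxk1 regions met the same Sin3A region, so a single Sin3A region decided both. Without pairs of this kind 17 of 41 were shared, or 41.5%. Another Foxk1 region lay within 1 kb of 176 members (6.71%) and of 197 regions not shared (3.71%). The median distance to the nearest Foxk1 region hardly differed, at 46530 bases for members and 47775 bases for regions not shared.

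**Figure D4:**
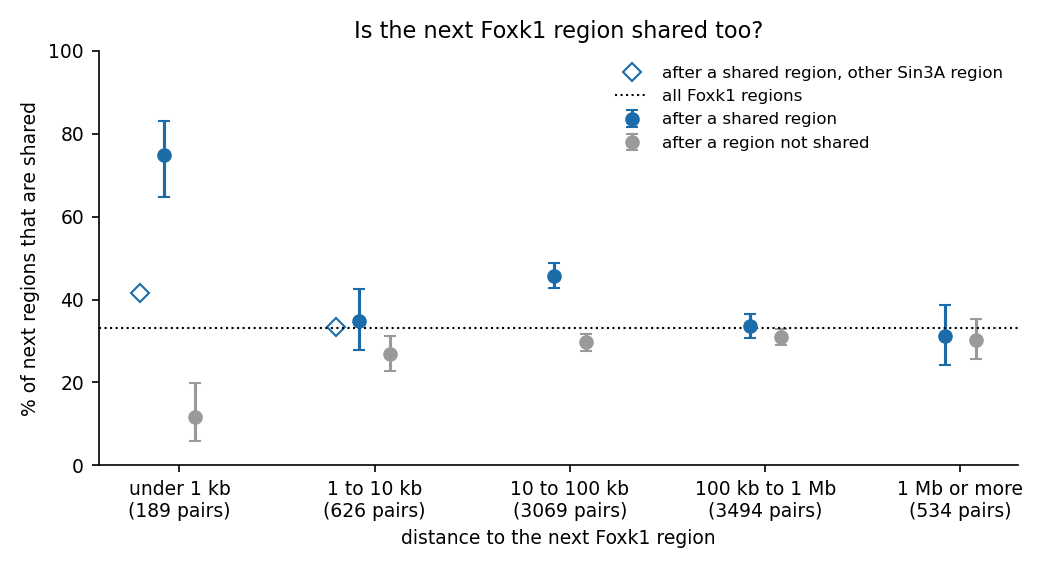
Percent of next Foxk1 regions that are shared with Sin3A, by distance, after a shared region (blue) and after one not shared (grey), with exact 95% intervals; open diamonds leave out pairs that meet the same Sin3A region, and the dotted line marks the 33.1% of all Foxk1 regions. At 10 to 100 kb the values are 45.8% and 29.6%, and from 100 kb on the intervals overlap.

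Outside chr18, the longest run of consecutive Foxk1 regions that were all members held 11 regions. It went from chr17:46296887 to position 46980301, a span of 683 kb. The densest stretch of 100 kb outside chr18 held 6 members and no other Foxk1 region, at chr11:69392525-69486230. Its first pair, chr11:69392525-69393190 and chr11:69394436-69395164 (666 and 729 bases), lay in 1 Sin3A region of 4102 bases. Its last pair, chr11:69484214-69485031 and chr11:69485738-69486230 (818 and 493 bases), lay in another of 2242 bases. The members between them, of 415 and 575 bases, lay in Sin3A regions of 1621 and 832 bases. All 6 were wholly inside Sin3A. The run and the stretch are the extremes of the list outside chr18 and were picked as such.

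Sin3A regions were denser around members than around Foxk1 regions not shared. The rule picks Foxk1 regions that meet Sin3A, so it can favour stretches with many Sin3A regions. Its part in these densities was not tested. Region centres were counted from 5 to 500 kb around each Foxk1 centre, which leaves out the overlapping Sin3A regions themselves, since no pair of centres was more than 2651 bases apart. At 25 to 50 kb there were 16.1 Sin3A regions per Mb around members and 11.7 per Mb around Foxk1 regions not shared, with the higher value around members on 19 of 19 chromosomes. At least 1 Sin3A region lay at that distance from 49.7% of members and from 39.4% of the others. At 50 to 100 kb the densities were 14.7 and 11.7 per Mb, and at 250 to 500 kb 11.1 and 9.64 per Mb, higher around members on 16 and 13 of 19 chromosomes. Closer in, at 5 to 10 kb, they were 16.8 and 13.8 per Mb, with the higher value around members on 11 of 19. At 10 to 25 kb they were 15.4 and 12.1 per Mb, higher around members on 13 of 19.

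Foxk1 regions of the 2 kinds were arranged differently around members. At 25 to 50 kb, other members stood at 3.87 per Mb around a member and at 2.08 per Mb around a Foxk1 region not shared. Foxk1 regions not shared stood at 4.20 per Mb around members and at 5.39 per Mb around one another. At 5 to 10 kb the latter values were 5.45 and 7.12 per Mb, and from 100 to 250 kb on they were nearly equal, at 4.10 and 4.14 per Mb. All Foxk1 regions together stood at 8.08 per Mb around members and 7.47 per Mb around the others at 25 to 50 kb. The value around members was the higher one on 11 of 19 chromosomes. From 5 to 25 kb the order was reversed. The density was 8.96 around members against 9.81 per Mb at 5 to 10 kb, and 7.63 against 8.74 per Mb at 10 to 25 kb. On 8 and 7 of 19 chromosomes the value around members was still the higher one. Members were thus denser around members than around the other Foxk1 regions, and at 250 to 500 kb they still stood at 2.36 against 1.84 per Mb. In absolute terms members had more regions not shared than members around them at each of these distances, for example 4.20 against 3.87 per Mb at 25 to 50 kb. The whole list also holds more regions not shared than members, 5309 against 2622. Around regions not shared the same 2 values were 5.39 and 2.08 per Mb. The part of local Sin3A density in these values was not tested.

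**Figure D5:**
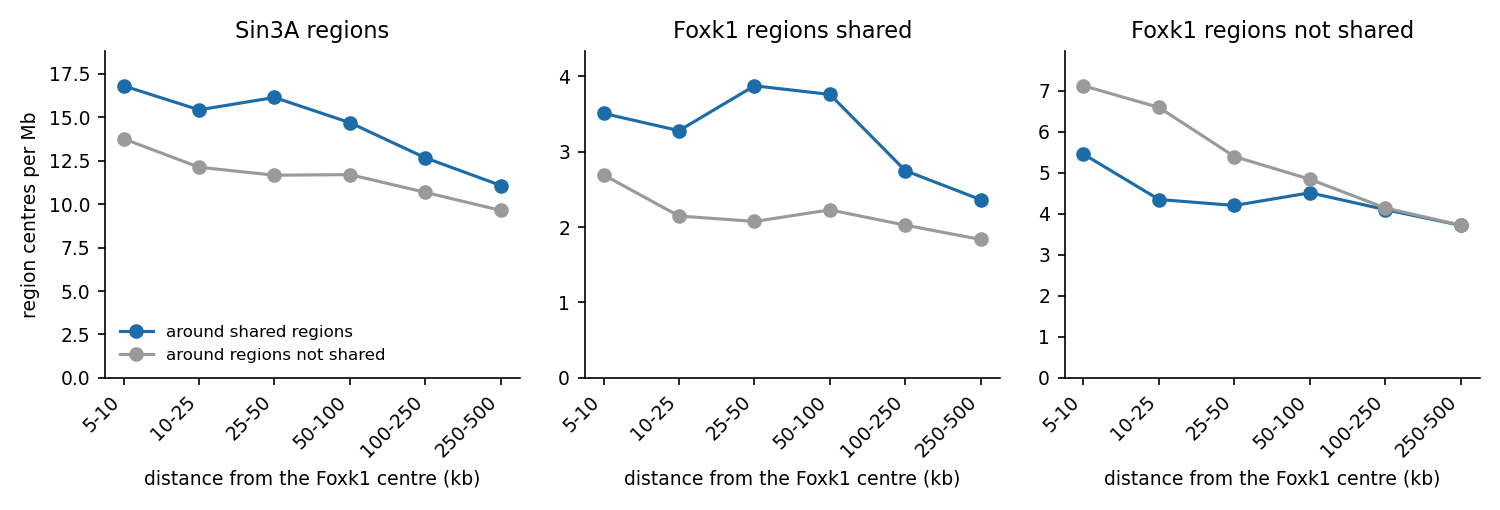
Density of region centres per Mb by distance from a Foxk1 centre in kb, around shared Foxk1 regions (blue) and those not shared (grey), for Sin3A regions (left), shared Foxk1 regions (middle) and Foxk1 regions not shared (right). At 25 to 50 kb Sin3A stands at 16.1 against 11.7 per Mb and shared Foxk1 regions at 3.87 against 2.08 per Mb, while regions not shared stand at 4.20 against 5.39 per Mb.

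The genes for the proteins of these regions were read in the RNA libraries, in FPKM (fragments counted per length of transcript and per depth of library) with the authors' 95% interval. The myoblast markers Myod1, Myf5, Cdh15, Des, Pax7 and Myog were all above 1 FPKM in the control library, with Myod1, the myoblast determination factor, at 70.1 and the intermediate filament gene Des at 485 FPKM. Of 8 markers of endothelial, blood, epithelial and fat cells, the macrophage gene Cd68 was at 2.50 FPKM and the other 7 were under 1, with the fat droplet gene Plin1 listed at 0. Some of the myoblast markers differed in the other libraries, with the authors' intervals apart from the control: Myod1 was at 10.7, Myf5 at 29.6 and Myog at 6.02 FPKM in the starved library, against 70.1, 16.8 and 14.2 in the control, and Myog was at 45.4 FPKM in the knockdown library. Their part in the differences given below was not tested. The ChIP samples themselves carry no RNA to check.

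In the control library Sin3a and the genes of the deacetylases and histone-binding subunits stood above Foxk1. Foxk1 was at 9.09 FPKM (7.76 to 10.4) and Sin3a at 19.0 FPKM (16.2 to 21.8). The other Foxk and Sin3 genes listed, Foxk2 and Sin3b, stood higher, at 33.7 and 84.3 FPKM. The deacetylase genes Hdac1 and Hdac2 were at 95.1 and 82.5 FPKM, and Rbbp4 and Rbbp7, which encode the histone-binding subunits, at 102 and 145 FPKM. The subunit genes Sap18, Sap130, Suds3 and Sap30 were at 187, 34.1, 31.4 and 14.9 FPKM, and Arid4a and Arid4b, large subunits of the complex, at 5.08 and 8.28 FPKM. Of 31 listed genes of the Foxk factors, the Sin3 complex, its partners and the Max network, 30 reached 1 FPKM in the control library. The exception was Tet1, a DNA demethylase gene, at 0.616 FPKM.

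With 1 library a group these levels have no replicate check, and 2 libraries are called apart when the authors' intervals do not overlap. In the knockdown library Foxk1 was at 5.15 FPKM (4.29 to 6.02), the only 1 of 31 listed genes that was lower and apart, where 7.13% of all expressed rows were. Sin3a was at 19.9 FPKM, Hdac1 at 95.2 and Hdac2 at 83.8 FPKM, with intervals that overlapped those of the control. Higher and apart were 6 of 31, beside 8.89% of all rows: Kdm5a, Ogt, Tet1, Mxd1, Mxd4 and Mnt. Tet1 reached 1 FPKM only outside the control library, in both comparisons, and so had to be higher. Mxd1, Mxd4 and Mnt encode Max partners that bring Sin3 to DNA. The Mxd4 level was 31.2 FPKM (24.6 to 37.8) without and 70.4 FPKM (54.5 to 86.3) with the siRNA against Foxk1. The starved library, compared with the same control, had 7 of 31 higher and apart, beside 12.2% of all rows, and 3 lower and apart, beside 10.9%. The 7 were Foxk1, Sin3a, Kdm5a, Tet1, Mxd1, Mxd4 and Mnt, with Mnt at 26.9 FPKM against 11.3 in the control, and the 3 were Hdac1, Hdac2 and Brms1. Hdac1 was at 63.2 FPKM (52.7 to 73.6) in the starved library, outside its control interval of 78.4 to 112. For Hdac2 (43.4 to 64.9 against 65.4 to 93.6 in the control) and Kdm5a (9.72 to 15.2 against 6.59 to 9.46) the intervals were barely apart. No ChIP-seq of starved or Foxk1-depleted cells was analysed here, so how the shared regions stood under those conditions was not measured.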

How the data were processed

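Per the file headers and the labels, the authors deposited each ChIP-seq list as positions only (chromosome and boundaries), so other values such as scores or depth could not be used. Build mm9, BWA 0.7.5a, bedtools and SAMtools 0.1.19 are named in the submitters' processing notes. The caller, its thresholds and any pooling: not given in the sources used here. RNA values are the authors' FPKM with a 95% interval, per the file headers; Bowtie2 2.1.0, TopHat2 2.0.9, Cuffdiff and Cufflinks 2.1.1 are named in the notes. Read depth is unknown.

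From 8857 Foxk1 rows, 915 on chr15 and 11 on chrM were left out. From 16779 Sin3A rows, 6 repeated lines and then 1577 and 11 were left out. Left boundaries were read as counted from 0, as in BED files, and are printed from base 1. Sequence and gene annotation of mm9 were not used here, so regions have coordinates only. The planned comparison with genes and promoters was not run for that reason.

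Shares have exact Clopper-Pearson 95% intervals; no test was run, since each group has 1 sample. The regions named were the 5 widest, the 5 with the most shared bases, the 3 narrowest, the 5 nearest the rule on each side, those that met the most regions of the other list and the densest 100 kb. Regions on chr18 were left out of these choices and of the longest run. The longest run, the splits by Sin3A width, the 20-base tolerance and the densities around regions were added after values were seen. Rows with reversed FPKM limits were left out, and expressed rows had 1 FPKM or more in 1 of the libraries compared. The members and lists were chosen with earlier results of these data known. The scripts were tested on simulated regions and ran in Python 3.11.15 with numpy 2.4.6, pandas 2.3.3, scipy 1.17.1 and matplotlib 3.10.9.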

Additional observations from a re-analysis of the deposited data

How the results depend on the processing

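The number of shared Foxk1 regions stayed within 1.5 times 2622 under 9 of 10 alternatives. It was 1342 when at least 50% of both regions had to be shared. A Sin3A region over 2 times as wide as its Foxk1 region cannot meet this with that region alone. Sin3A was at least 2 times as wide in 1056 of 2641 pairs (40.0%), and the part of this in the drop was not tested. Under that rule the percent of Foxk1 regions shared became 16.9% and that of Sin3A regions 8.84%. With 50% of the Foxk1 region covered they were 31.2% and 16.1%, with the Foxk1 centre base in Sin3A 31.3% and 16.0%, and with a Sin3A region within 1000 bases 36.0% and 19.8%. The Foxk1 percent was 27.2% with only Sin3A regions of the median width or more, 31.7% with chr15 kept, and 27.6% in the 6 narrower width bins alone, an alternative chosen after seeing the data. The difference in median width stayed between 59 and 71.5 bases under the 4 overlap rules tried. The percent of next regions shared after a member was 48.9% for neighbours at most 10000 bases away. Chosen after seeing the data, it was 34.9% for these neighbours without pairs that meet the same Sin3A region, 38.5% for all neighbours without such pairs, and 45.8% for neighbours 10000 to 100000 bases away. No region lay on chrY or unplaced sequences, so leaving these out changed nothing. No paired analysis was possible because each group has 1 sample. Without scores or read counts, a stricter calling threshold and the depth of either library could not be examined.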
